A study of Mus musculus with 39 samples.

Results

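The comparison described here is that of Activin A plus Wnt3a with Wnt3a alone after 1 day of treatment, so that the 2 groups differed by the addition of Activin A. Its members were the 6 arrays that carry these labels, 3 in each group, of 39 arrays in the study. On each array 611 mouse miRNAs were measured, of which 238 were tested and 205 were detected on all 6 arrays. The question was which miRNAs respond within the first day when Activin A is given on top of Wnt3a, at the time the study calls DE (definitive endoderm) initiation.

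The cells were mouse ES TCL-1 cells, 1 embryonic stem cell line derived from 129/SvJae mice. They had been grown on mouse embryonic fibroblast feeders with LIF, were freed of feeders by plating on gelatin, and were then kept on collagen. The Wnt3a group received 50 ng/ml Wnt3a and the other group received 50 ng/ml Wnt3a and 100 ng/ml Activin A. Both were in RPMI with B27 and sodium butyrate, a medium that the study's methods give for all treatments, and the control cells had the same medium without growth factors. Activin A at 100 ng/ml alone and the control group, with 3 arrays each at day 1, are used below where the effect of Activin A is set beside its effect without Wnt3a, and the same 2 treatments at days 3 and 5 where it is followed in time. The labels do not say whether the 3 arrays of a group came from separate cultures, so the p-values measure the spread between these arrays, which may be technical.

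Activin A is a ligand of the TGF-beta family that signals through SMAD2 and SMAD3, and at a high dose it is used to turn ESCs toward endoderm. Wnt3a acts through beta-catenin, which supports self-renewal of mouse ESCs and, in the embryo, formation of the primitive streak. A miRNA is a short RNA that lowers the output of mRNAs matching its seed, bases 2 to 8 of the mature strand, and miRNAs of 1 genomic cluster are often cut from 1 primary transcript. In mouse ESCs the miR-290 to miR-295 cluster is highly abundant, whereas the miR-302/miR-367 cluster is known from later, epiblast-like pluripotent cells.

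The mature sequences of the miRNAs that carry the result are given below from RefSeq (GRCm38.p6), 5′ to 3′, with the seed in capitals. Of the 238 tested miRNAs, 99 had a mature sequence there, among them 10 of the 11 called ones. The array names most strands without an arm, and the arm used here is the one named. The 11th is miR-302a, which is named only. The first 5 sequences are the called miRNAs of the 2 clusters that changed with more than 1 member, miR-302/miR-367 and miR-99b/let-7e/miR-125a.

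miR-302b-3p: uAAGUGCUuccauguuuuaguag
miR-302d-3p: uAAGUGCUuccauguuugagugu
miR-367-3p: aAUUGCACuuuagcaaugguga
miR-99b-5p: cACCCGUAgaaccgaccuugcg
miR-125a-5p: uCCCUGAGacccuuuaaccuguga

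The next 3 are members of the miR-290 to miR-295 cluster, shown because they carry the seed of miR-302b and miR-302d but come from another chromosome.

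miR-291a-3p: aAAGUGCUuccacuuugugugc
miR-294-3p: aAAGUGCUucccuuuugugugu
miR-295-3p: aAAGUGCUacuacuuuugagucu

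The other called miRNAs follow, each with the seed relative that was detected on all 6 arrays and is discussed with it.

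miR-125b-5p: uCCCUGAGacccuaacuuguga
miR-23a-3p: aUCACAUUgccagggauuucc
miR-181d-5p: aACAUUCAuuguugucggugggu
miR-181c-5p: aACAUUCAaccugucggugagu
miR-107-3p: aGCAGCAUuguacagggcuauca
miR-103-3p: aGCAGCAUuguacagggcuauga
miR-19b-3p: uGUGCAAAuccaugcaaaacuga
miR-19a-3p: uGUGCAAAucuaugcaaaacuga

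All 6 arrays lay on 1 slide of 8 and were scanned in the same session. They detected 217 to 246 mouse miRNAs with Wnt3a and 216 to 240 with Activin A plus Wnt3a, and the lowest normalized log2 signal at which any miRNA was detected was 3.58 to 4.34. The number of miRNAs detected and the total signal did not separate the groups (both p = 0.8, two-sided exact permutation test, where the smallest possible p is 0.1). The median background was 38 to 39 intensity units on the Wnt3a arrays and 36 on each of the others (exact permutation p = 0.1). The Wnt3a arrays lay in row 1 of the slide and the Activin A plus Wnt3a arrays in row 2, so within these 6 arrays the row and the treatment cannot be told apart. Another limit is the labelling. Of 39 columns in the authors' processed table, 18 hold the values that the scanner files give to the other of the 2 treatments with Activin A, and the labels of the scanner files are used here. If the table's labels were the right ones, the arrays called Activin A plus Wnt3a here would be arrays of Activin A alone.

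The profiles of the 2 groups were close at day 1. Over the 205 miRNAs detected on all 6 arrays, the difference between the group means on the log2 scale had a median of 0.03 and a median size of 0.10, and 192 of the 205 differed by less than 0.5. The root mean square difference was 0.17 to 0.28 between 2 arrays of a group and 0.22 to 0.37 between arrays of different groups, and for 6 of 6 arrays the nearest other array was of the same group. Of the 238 tested miRNAs, 11 (4.62%) were called at an adjusted p under 0.05 in limma with the Benjamini-Hochberg adjustment, 6 of them higher (2.52%) and 5 lower (2.1%) with Activin A. All 11 were detected on all 6 arrays and had groups that did not overlap, as had 48 of the 205 (23.4%). Only miR-367 differed more than 2-fold. With the 75th percentile of each array as its scale in place of quantile normalization, 3 were called higher and 5 lower where the percentile was taken among miRNAs that all 39 arrays detected, and 1 higher and 2 lower where it was taken among all miRNAs.

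**Figure D1:**
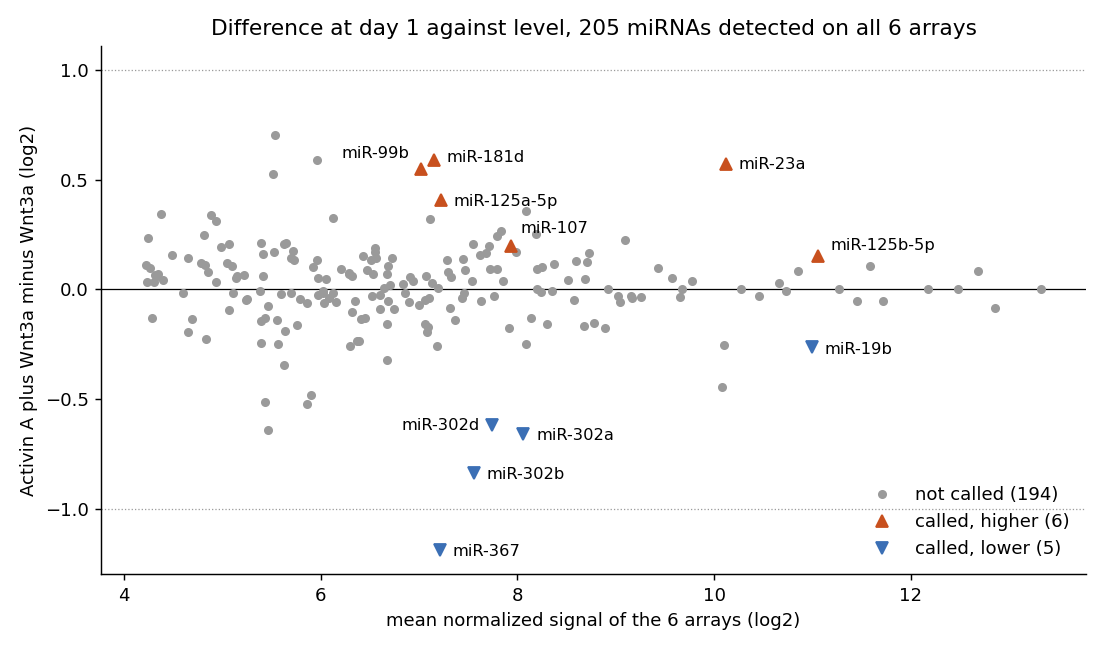
Log2 difference between Activin A plus Wnt3a and Wnt3a at day 1 (vertical axis) against the mean normalized log2 signal of the 6 arrays (horizontal axis), 1 point for each of the 205 miRNAs detected on all 6 arrays, with dotted lines at 2-fold. Most points lie near 0, miR-367 alone lies beyond 2-fold, and the 4 called members of the miR-302/miR-367 cluster are among the lowest. miR-721 (-0.64), not called, lies between miR-302a and miR-302d.

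In the miR-302/miR-367 cluster, 4 of 5 tested strands were called lower with Activin A than with Wnt3a alone. Its 5 genes lie within 580 bases at chr3:127545228-127545807 on the plus strand (GRCm38.p6), inside the span of Larp7, a gene for an RNA-binding protein, and of the long non-coding RNA gene Gm51018. Of 8 strands of the cluster on the array, 5 were tested, all 5 detected on all 6 arrays, and the star strands miR-302a*, miR-302b* and miR-302c* were detected on none. All 5 were lower with Activin A with no overlap between the groups, against 9.27% of the 205 miRNAs that were lower without overlap, and 4 of the 5 were called lower. Their median log2 difference was -0.66, against 0.03 over the 205.

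miR-302a had normalized log2 signals of 8.43, 8.32 and 8.43 with Wnt3a and of 7.75, 7.69 and 7.75 with Activin A plus Wnt3a. The lowest Wnt3a array stood well above the highest of the other group. The difference was -0.66 (95% interval -0.77 to -0.55, adjusted p = 8.33e-05 in limma), a decrease to 0.633 of the Wnt3a level.

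miR-302b read 7.96, 7.96 and 8.01 with Wnt3a and 7.12, 7.10 and 7.20 with Activin A added. It shares its seed with miR-302d and fell by 0.84 on the log2 scale (95% interval -1.04 to -0.64, adjusted p = 0.000655 in limma). miR-302d read 8.04, 8.07 and 8.04 against 7.39, 7.41 and 7.50, again with a wide gap between the groups. Its difference was -0.62 (adjusted p = 0.00701 in limma). With Wnt3a alone, miR-302b, miR-302d and miR-302a stood above control at day 1, by 0.69, 0.64 and 0.29 (adjusted p = 0.00236, 0.00409 and 0.00439 in limma). miR-367 differed from control by 0.29 and was not called. With both factors miR-302b and miR-302d differed from control by -0.15 and 0.03 and were not called. miR-302a and miR-367 with both factors differed from control by -0.37 and -0.89, both called. The control arrays lay on another slide.

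miR-367 is the cluster's member with another seed, that of the miR-25 and miR-92 family. Its signals were 7.93, 7.87 and 7.61 with Wnt3a and 6.49, 6.41 and 6.95 with both factors. The arrays within a group were farther apart than for the miR-302 strands, but the groups did not overlap. The difference of -1.19 had a 95% interval of -1.60 to -0.78 (adjusted p = 0.0054 in limma). miR-302c, the least abundant of the 5, read 5.96, 6.17 and 6.23 against 5.68, 5.61 and 5.50. It did not pass the test, with a difference of -0.52 (95% interval -0.89 to -0.16, adjusted p = 0.156 in limma).

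**Figure D2:**
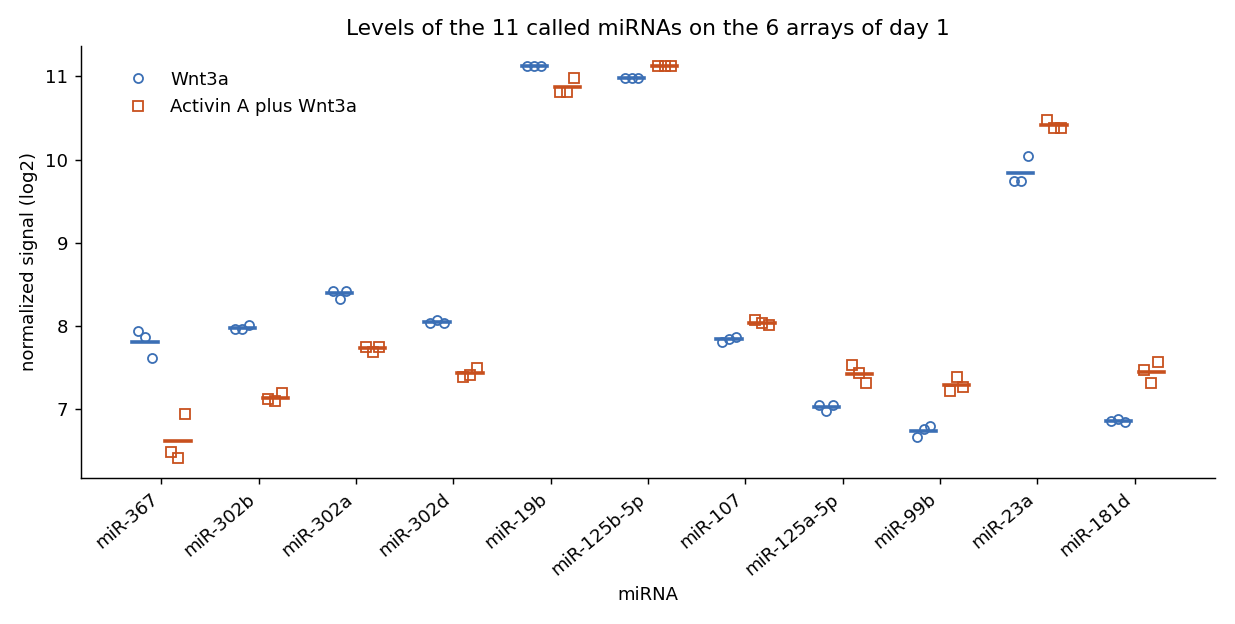
Normalized log2 signal (vertical axis) of the 11 called miRNAs on each of the 3 Wnt3a arrays (circles) and the 3 Activin A plus Wnt3a arrays (squares) of day 1, with bars at the group means. In each of the 11 the groups are separate, as for miR-302a with 8.32 to 8.43 against 7.69 to 7.75.

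The miR-290 to miR-295 cluster did not follow the miR-302 strands. Of its 14 strands on the array, 13 were tested and 12 detected on all 6 arrays, and 0 were called in limma, with 0 called by the methods' unmoderated test as well and 1 at an unadjusted p under 0.05. Their differences lay between -0.13 and 0.17 with a median of 0.04. The 3 members with the seed of miR-302b and miR-302d were among the most abundant miRNAs of these cells. miR-291a-3p read 12.18 and miR-294 read 13.32 on all 6 arrays. miR-295 read 12.64 on 5 arrays and 12.89 on the 6th, an Activin A plus Wnt3a array. Such abundant miRNAs hold the same rank on nearly every array, and quantile normalization then gives them the same value. With percentile scaling, taken among miRNAs that all 39 arrays detected, their differences were -0.07, 0.01 and 0.17. miR-25 and miR-92a, seed relatives of miR-367 from other clusters, differed by 0.05 and 0.11 and were not called.

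In the miR-99b/let-7e/miR-125a cluster, 2 of the 3 main strands were called higher. The 3 genes lie within 686 bases at chr17:17830194-17830879 on the plus strand, inside the span of Spaca6, a gene for a sperm membrane protein. This cluster was listed after the calls had been seen. Its 3 main strands were detected on all 6 arrays and all were higher with Activin A without overlap, against 14.1% of the 205, and 2 of the 3 were called. Star strand miR-99b* was detected on none of the 6 arrays.

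miR-99b had signals of 6.67, 6.76 and 6.80 with Wnt3a and of 7.22, 7.39 and 7.27 with Activin A added, a clear gap. The difference was 0.55 (95% interval 0.41 to 0.68, adjusted p = 0.000655 in limma), or 46.3% above the Wnt3a level. miR-125a-5p, which carries the lin-4 seed, read 7.05, 6.97 and 7.05 against 7.53, 7.44 and 7.32. Its difference was 0.41 (95% interval 0.27 to 0.54, adjusted p = 0.00472 in limma). let-7e, a member of the let-7 family, read 7.64, 7.69 and 7.69 against 7.93, 7.93 and 7.87. Its difference of 0.24 did not pass the test (adjusted p = 0.123 in limma). Of the let-7 family 9 strands were detected on all 6 arrays, all with a positive difference, median 0.14, and 0 were called in limma or by the methods' unmoderated test, with 1 at an unadjusted p under 0.05.

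miR-23a, of the miR-23a/miR-27a/miR-24-2 cluster, was more abundant and rose as well. It read 9.74, 9.74 and 10.04 with Wnt3a and 10.47, 10.38 and 10.38 with both factors. The lowest array with Activin A stood above the highest without. The difference was 0.57 (95% interval 0.37 to 0.77, adjusted p = 0.00555 in limma). miR-27a and miR-24, which lie with miR-23a within 404 bases at chr8:84208518-84208921 (GRCm38.p6, plus strand), had differences of 0.23 and 0.10, overlapped between the groups and were not called. miR-24 also has a locus on chromosome 13, with miR-23b and miR-27b, so its signal is not specific to the cluster of miR-23a. All 5 strands of the miR-23, miR-27 and miR-24 clusters that were measured had positive differences.

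miR-181d read 6.86, 6.88 and 6.84 with Wnt3a and 7.47, 7.32 and 7.56 with Activin A added. Its difference of 0.59 (95% interval 0.31 to 0.87) was called at an adjusted p of 0.0252 in limma. The Wnt3a arrays were the low ones at day 1. The control arrays read 7.24 to 7.56 and the arrays of Activin A alone 7.15 to 7.59, which is the range of the arrays with both factors. Its neighbour and seed relative miR-181c, 1 of 6 miRNAs that the study transfected as a pool, read 5.07, 5.41 and 5.09 against 5.86, 5.84 and 5.96. Its difference of 0.70 came with a 95% interval of -1.12 to 2.52 in the fit of 12 arrays, since it was undetected on 2 of those 12 arrays, both outside the 2 groups compared, which enter at the floor. In a fit of the 6 arrays alone it was called (adjusted p = 0.0297 in limma), but not with the replicate block in that fit. In all it was called under 3 of 17 alternatives and in 0 of 12 fits with 1 array left out.

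The remaining called miRNAs differed little. miR-107 read 7.81, 7.84 and 7.87 against 8.07, 8.04 and 8.01, a difference of 0.20 (adjusted p = 0.00701 in limma). Its seed relative miR-103 differed by 0.10 and was not called. miR-125b-5p, which shares the seed of miR-125a-5p and is also made by fibroblasts, and miR-19b, of the miR-17-92 cluster known for promoting cell growth, lie close to each other in rank. miR-125b-5p read 10.98 on all 3 Wnt3a arrays and 11.13 on all 3 others. miR-19b read 11.13 on all Wnt3a arrays and 10.81, 10.81 and 10.98 on the others. Quantile normalization gives all arrays the same value at a given rank, and the spread within each group was small. The differences of 0.15 and -0.26 were called (adjusted p = 0.0164 and 0.00701 in limma). With the same percentile scaling, miR-125b-5p differed by 0.02 and miR-19b by -0.32, and neither was called. miR-19a, with the seed of miR-19b, read 8.14, 8.39 and 8.11 against 8.01, 7.78 and 8.11 and was not called (difference -0.25, adjusted p = 0.395 in limma).

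**Figure D3:**
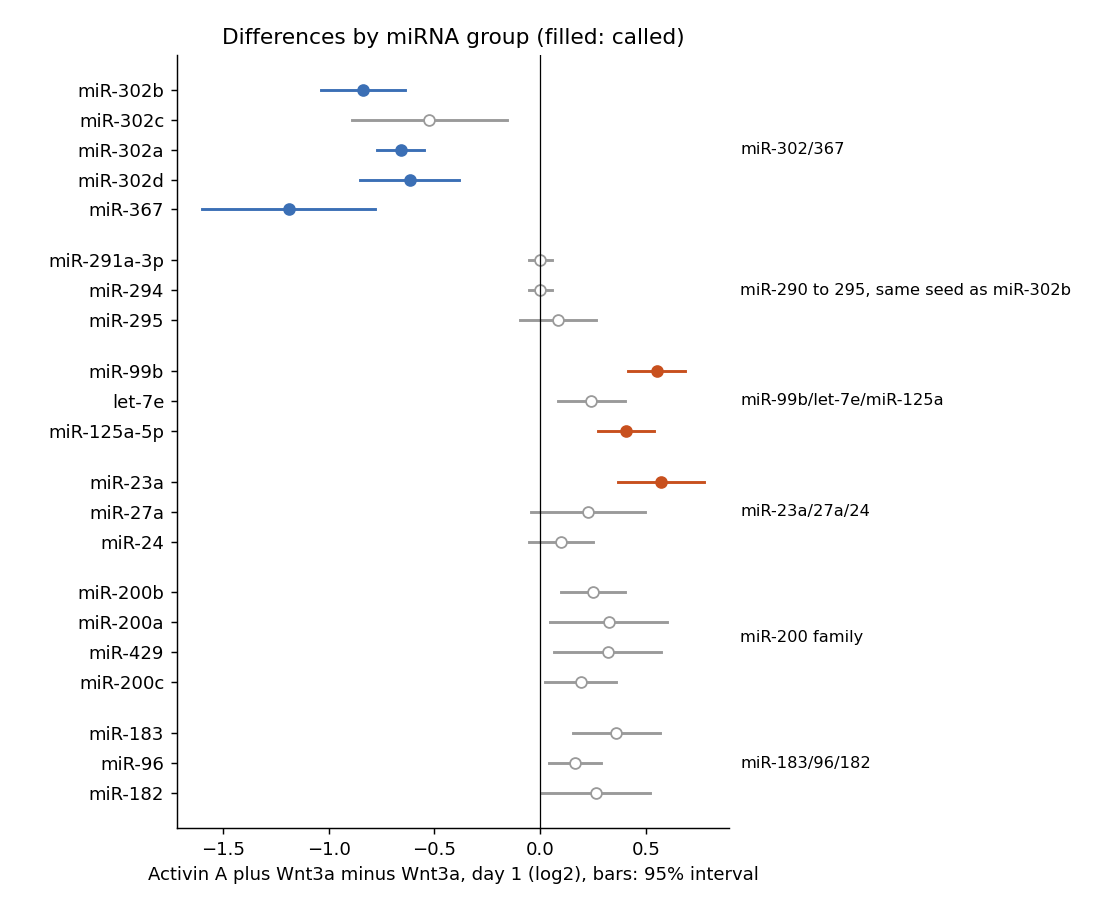
Log2 difference between Activin A plus Wnt3a and Wnt3a at day 1 with its 95% interval (horizontal axis) for the members of 6 miRNA groups detected on all 6 arrays, with filled points for called miRNAs. The 5 miR-302/miR-367 strands lie between -1.19 and -0.52, while the miR-290 to miR-295 strands with the seed of miR-302b lie between 0.00 and 0.08.

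The miR-200 family, known for keeping the epithelial state, had 5 tested members, of which 4 were detected on all 6 arrays. All 4 were higher with Activin A without overlap, against 14.1% of the 205. The other tested member, miR-141, was detected on 3 Wnt3a arrays and on 2 arrays with both factors. Its difference was -1.36, with the undetected array entering at the floor. The groups overlapped and miR-141 was not called (adjusted p = 0.840 in limma). miR-200b, miR-200a, miR-429 and miR-200c had differences of 0.25, 0.32, 0.32 and 0.19, and 0 of them were called in limma or by the methods' unmoderated test, although all 4 had an unadjusted p under 0.05. miR-200b came closest and read 8.11, 8.01 and 8.07 against 8.39, 8.26 and 8.29 (adjusted p = 0.0839 in limma). The miR-183/miR-96/miR-182 cluster, expressed in sensory epithelia, was also listed after the calls were seen. Its strands miR-183, miR-96, miR-182 and miR-183* had differences of 0.36, 0.16, 0.26 and 0.34. The first 3 were higher without overlap, again against 14.1% of the 205. 0 of the 4 were called in limma or by the methods' unmoderated test, with 3 at an unadjusted p under 0.05, and miR-183 was nearest to a call (7.87, 7.93 and 7.93 against 8.29, 8.39 and 8.14, adjusted p = 0.0701 in limma).

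Grouped by genomic position, for the 196 of 238 tested miRNAs that matched a RefSeq locus by name, 15 clusters had at least 3 members detected on all 6 arrays. The miR-302/miR-367 cluster had the lowest median of the 15. The highest were those of miR-99b/let-7e/miR-125a, with 0.41, miR-200b/miR-200a/miR-429, with 0.32, and miR-183/miR-96/miR-182, with 0.30. The 22 strands measured from the large cluster on chromosome 12 that begins with Mir379 had a median of -0.02. The cluster that begins with Mir17 had 6 such strands with a median of -0.17, and miR-19b was its single call. miR-19b also has a locus in the cluster that begins with Mir363, so its signal is not specific to 1 cluster. The fixed list of miR-17-92 strands had 9 strands with a median of -0.14. It includes miR-18a and miR-92a, which lie within the span of the cluster that begins with Mir17 but were not matched to it by name.

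Markers of other cell types differed in how far they were detected. The 6 muscle miRNAs were detected on none of the 6 arrays. Of 8 gut, liver and pancreas miRNAs 7 were detected on none, among them miR-122, miR-192, miR-194 and miR-375, and none was tested. Of the 13 fibroblast and mesenchymal miRNAs 9 were detected on all 6 arrays, with a median difference of -0.02. Their summed normalized signal was 6004 to 6312 with Wnt3a and 6197 to 6245 with both factors, ranges that overlap. The part of feeder cells in the results was not tested. Of 7 neural miRNAs 4 were undetected on all 6 arrays and 2 were detected on all 6. Of these, miR-124 read 5.79, 5.58 and 5.71 with Wnt3a and 5.48, 5.43 and 5.43 with both factors, and miR-128 read 5.05, 5.50 and 5.23 against 5.89, 5.67 and 5.79. The groups did not overlap in either, and neither miRNA was called (adjusted p = 0.541 and 0.989 in limma). Of 9 blood-lineage miRNAs 6 were undetected on all 6 arrays and 2 were detected on all 6, and these 2 went in opposite directions. miR-155 was higher with Activin A added, without overlap. Its difference of 0.31 was not called (adjusted p = 0.256 in limma). miR-150, best known from lymphocytes, read 7.29, 7.29 and 7.36 with Wnt3a and 6.97, 7.07 and 7.12 with Activin A added, a difference of -0.26 that was not called (adjusted p = 0.138 in limma). In bulk RNA, fewer cells of a type and less RNA per cell cannot be told apart.

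Of the miRNAs the study names, miR-125a-5p was called at day 1, and let-7e and miR-181c were not. miR-335-5p and miR-335-3p had differences of -0.14 and -0.24, miR-10a of 0.17, and none of these was called. miR-222 was detected on 2 of 3 Wnt3a arrays and on 1 of 3 with both factors, and miR-196a on 1 and 2. Neither was called. miR-196b was detected only on 1 array with both factors, and miR-218 on 1 array of each group. miR-338-5p, miR-340-3p, miR-24-2* and miR-375 were detected on none of the 6 arrays of the comparison. miR-26a, not named by the study, was lower without overlap (8.82, 8.94 and 8.82 against 8.72, 8.72 and 8.66) and not called (adjusted p = 0.156 in limma).

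Next, the effect of Activin A in the presence of Wnt3a was set beside its effect without Wnt3a, Activin A minus control at day 1. These 2 effects share no array. The interaction, their difference, was called for 0 of 238 miRNAs (0%) in limma, with 14 at an unadjusted p under 0.05, and for 0 by the methods' unmoderated test. Activin A without Wnt3a gave 9 calls of 238 (3.78%), and 7 of the 11 miRNAs called with Wnt3a were among them with the same sign: miR-302a, miR-302b, miR-302d, miR-367, miR-99b, miR-125a-5p and miR-23a.

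For miR-302a the effect was -0.74 without Wnt3a and -0.66 with it, and their difference was 0.08 with a 95% interval of -0.08 to 0.24. For miR-302b the effects were -0.79 and -0.84, and for miR-302d they were -0.67 and -0.62. miR-367 had -0.87 without Wnt3a and -1.19 with it (interaction -0.32, 95% interval -0.90 to 0.26). miR-99b rose by 0.73 without and 0.55 with Wnt3a, and miR-125a-5p by 0.62 and 0.41. For miR-23a the effects were 0.67 and 0.57. The called differences of miR-181d, miR-19b and miR-125b-5p had near-zero counterparts without Wnt3a, 0.02, 0.00 and 0.03, but the interaction of each also failed the adjustment (adjusted p = 0.617, 0.575 and 0.617 in limma).

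**Figure D4:**
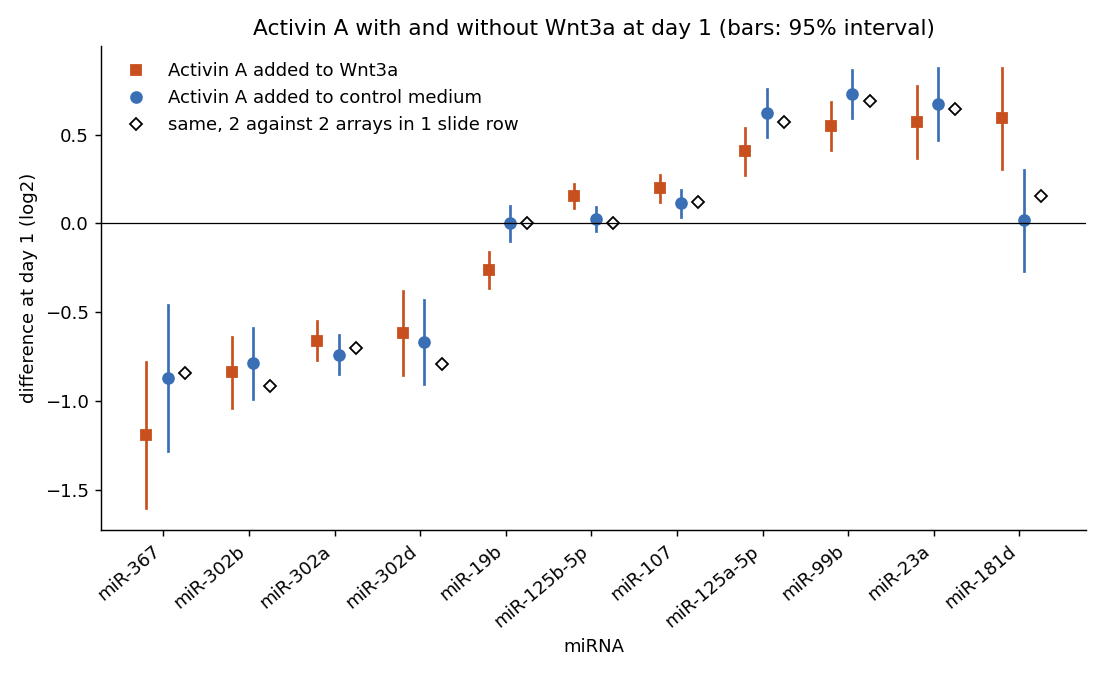
Effect of Activin A at day 1 on the log2 scale (vertical axis) for the 11 called miRNAs, in the presence of Wnt3a (squares), in control medium (circles) and in control medium with 2 against 2 arrays of 1 slide row (diamonds), with 95% intervals for the first 2. The miR-302/miR-367 strands, miR-99b, miR-125a-5p and miR-23a take similar values in all 3, and miR-181d and miR-19b do not.

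The arrays without Wnt3a also allow the slide row to be held fixed. Of these, 2 control arrays and 2 Activin A arrays lay in the same row of another slide. Between them miR-302a differed by -0.70, miR-302b by -0.92, miR-302d by -0.79 and miR-367 by -0.84, and miR-99b by 0.69, miR-125a-5p by 0.57 and miR-23a by 0.64, each without overlap. So did 80 of the 192 tested miRNAs that these 4 arrays detected (41.7%), 47 of them higher (24.5%) and 33 lower (17.2%). miR-107 differed by 0.12 without overlap, miR-181d by 0.16 with overlap, and miR-19b and miR-125b-5p by 0. With 2 arrays each no test was made, and these arrays are also part of the effect without Wnt3a given above. The remaining Activin A array lay in row 1 of the slide of the main comparison, next to the Wnt3a arrays. On it miR-302a read 7.29, miR-302b 6.74, miR-302d 6.95 and miR-367 6.86, all below the lowest Wnt3a array of the same row. miR-99b read 7.32, miR-125a-5p 7.39 and miR-23a 10.38, all above the highest. The share of all tested miRNAs for which this 1 array lay outside the Wnt3a arrays was not counted. That array differs from its neighbours in Wnt3a as well, and the part of the slide row in the results was not tested.

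The labels of the 2 treatments with Activin A bear on which comparison this is, but both have Activin A. Taking instead the arrays labelled Activin A alone against Wnt3a, as the processed table would have it, 35 of 238 miRNAs were called and 9 of them were among the 11. miR-302a then differed by -1.03 and miR-99b by 0.57, whereas miR-125b-5p changed sign, to -0.16. Of the arrays labelled Activin A alone, 2 lay on another slide than the Wnt3a arrays. The 35 calls thus come from a comparison that is partly between slides, unlike the 11. At day 1 miR-150 set the groups apart by the Wnt3a of their labels. It read 5.75 to 5.86 on the control arrays and 5.67 to 5.98 on the arrays of Activin A alone, against 6.97 to 7.36 on the 6 arrays labelled with Wnt3a, and the Activin A array on the same slide as these 6 read 5.98. This did not hold later. At day 3 it was detected on 3 of 3 Wnt3a arrays but on 1 of 3 with both factors, and on none of control or Activin A alone. At day 5 it was detected in none of these groups. Which labels are right was not tested.

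The effect of Activin A added to Wnt3a was then followed to days 3 and 5, each fitted on the 12 arrays of its day. At day 3, 165 of 319 tested miRNAs were called (51.7%), and at day 5, 146 of 358 (40.8%), with 58 (18.2%) and 89 (24.9%) of those tested both called and over 2-fold. The Activin A plus Wnt3a arrays of day 3 lay on a slide of their own among the arrays of that day. They were scanned in session 2 and the Wnt3a arrays of day 3 in session 1, so slide, session and treatment cannot be told apart there. At day 5 the 2 groups shared a slide, with Wnt3a in row 1 and Activin A plus Wnt3a in row 2, as at day 1. Row and treatment cannot be told apart at day 5 either. The change of the effect from day 1, tested in 1 fit of all 39 arrays, was called for 46 of 363 miRNAs at day 3 (12.7%) and for 120 of 363 at day 5 (33.1%). Without Wnt3a replicate 1 of day 5, an array that enters the test at day 3 only through the spread, 88 were called at day 3.

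The 4 called miR-302/miR-367 strands turned from lower to higher. miR-302a differed by -0.66 at day 1, by 1.17 at day 3 (adjusted p = 7.3e-07 in limma) and by 2.43 at day 5 (adjusted p = 1.59e-07 in limma). Its mean normalized log2 signal was 9.68 in undifferentiated ESCs, and at day 1 it was below that in every group, between 7.37 with Activin A alone and 8.39 with Wnt3a. At day 3 it was above, at 10.41 with Wnt3a and 11.59 with both factors. At day 5 it had dropped to 8.79 with Wnt3a and was 11.22 with both.

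The other strands of the cluster were also higher with Activin A on the later days. miR-302b, miR-302c, miR-302d and miR-367 differed by 1.51, 1.46, 0.85 and 1.11 at day 3 and by 3.36, 2.63, 2.35 and 1.82 at day 5, all called. The day 5 value of miR-302b rests in part on 1 array, since Wnt3a replicate 1 read 4.42 there and the other 2 read 8.17 and 8.21. Without that array the day 5 difference of miR-302b was 2.11 (adjusted p = 4.75e-07 in limma).

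**Figure D5:**
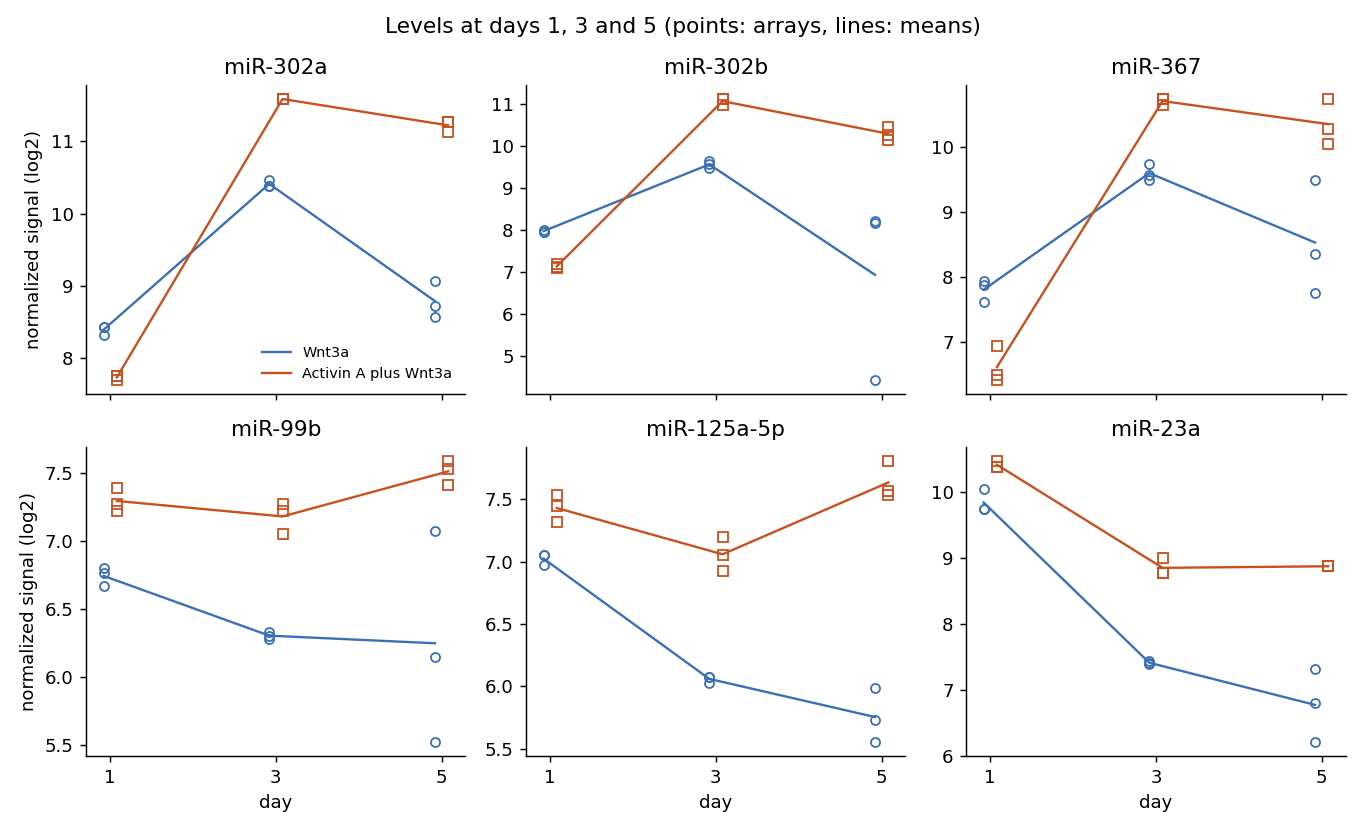
Normalized log2 signal (vertical axis, its range differing between panels) of 6 miRNAs at days 1, 3 and 5 (horizontal axis) on each Wnt3a array (circles) and each Activin A plus Wnt3a array (squares), with lines through the group means. miR-302a, miR-302b and miR-367 are lower with Activin A at day 1 and higher at days 3 and 5, while miR-99b, miR-125a-5p and miR-23a are higher by the mean on all 3 days.

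miR-99b, miR-125a-5p and miR-23a kept their sign. miR-99b differed by 0.55, 0.87 and 1.26 at days 1, 3 and 5, miR-125a-5p by 0.41, 1.00 and 1.88, and miR-23a by 0.57, 1.44 and 2.10, all called on each day. At day 5 the Wnt3a arrays of miR-99b were far apart, at 7.07, 5.52 and 6.15. let-7e, not called at day 1, differed by 1.59 at day 3 and 3.03 at day 5, and without Wnt3a replicate 1 of day 5 by 2.19. miR-429 differed by 1.40 at day 3, and miR-200b and miR-429 by 2.94 and 2.93 at day 5. miR-19b stayed lower, at -1.42 and -1.17, and miR-125b-5p turned from 0.15 to -1.72 and -1.74, all 4 called. miR-107 was not called on either later day, but without Wnt3a replicate 1 of day 5 it was called lower at day 5 (-0.28, adjusted p = 0.0110 in limma). miR-181d, not called at day 5 with a difference of 0.21, was called higher without that array (0.58, adjusted p = 0.00398 in limma).

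The miRNAs that Activin A changed over 2-fold at day 5 were also looked up at day 1, as a description. Of 48 that were higher at day 5, 32 were detected on all 6 arrays of day 1. Of these 21 had a positive and 8 a negative difference at day 1, with a median of 0.13, and 3 were called higher and 4 lower, the 4 being strands of the miR-302/miR-367 cluster. Of 41 that were lower at day 5, 17 were detected on all 6 arrays, and 7 were positive and 10 negative with a median of -0.06. Over all 205 the numbers were 107 positive and 92 negative with a median of 0.03.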

How the data were processed

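Levels of miRNAs were measured on 1-colour Agilent arrays for mouse, and each array was put in the group that its scanner file is labelled with. The intensity values used are the authors' deposited scanner output. In it the software, Feature Extraction 10.7.3.1 by the file headers, had removed the background and merged the probes of a miRNA into 1 total gene signal, set to 0.1 for an undetected miRNA. The study's methods and processing notes give version 9.5.3.1. The detection flags, other values of these deposited files, served as a filter. A second deposited table, the authors' normalized log2 values, gave no level used here, because 18 of its 39 columns match in rank order the scanner file of the other of the 2 treatments with Activin A. The 39 virus rows were left out.

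The signals of all 39 arrays were quantile normalized (limma 3.58.1, R 4.3.3), values below 2 were set to 2, and log2 was taken. The 4 groups of day 1 were fitted over 12 arrays with limma's empirical Bayes method, following the one-way design of the study's methods. A miRNA entered the test if 2 or more of the 3 arrays of any of the groups detected it. P-values were corrected by Benjamini and Hochberg's procedure, and a call is an adjusted p under 0.05. Intervals are 95% intervals of the same fit. The number of arrays limits the precision: over the 205 miRNAs detected on all 6 arrays the median half-width of an interval was 0.24, and for 165 it lay inside 2-fold in both directions. Exact permutation tests were used for array summaries. The fit was tested on simulated data.

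The comparison, the gene lists and the rule for named miRNAs were chosen with earlier results of these data known, and nothing in them is independent support. The rule named every called miRNA, up to 8 miRNAs without overlap between the groups in each direction by moderated t, miRNAs of the fixed lists, of the day 5 changes and those the study names. The miR-99b/let-7e/miR-125a and miR-183/miR-96/miR-182 lists, the grouping by RefSeq locus (1 strand, gaps of at most 10000 bases) and the comparison within 1 slide row were added after the calls were seen. An array name without an arm was matched to the arm that RefSeq and the array's strand names identify. Alternatives were other normalizations, backgrounds, floors, filters, fits and thresholds, and each array left out in turn.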

Additional observations from a re-analysis of the deposited data

Results flagged for a closer look

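For 10 of the 11 miRNAs called at day 1, the effect of adding Activin A to Wnt3a differed between day 1 and a later day, by a test of that difference in 1 limma fit of all 39 arrays with the Benjamini-Hochberg adjustment. In the miR-302/miR-367 cluster the effect at day 3 exceeded that at day 1 by 1.83 for miR-302a, 2.35 for miR-302b, 2.30 for miR-367 and 1.47 for miR-302d on the log2 scale. At day 5 it exceeded it by 3.09, 4.20, 3.01 and 2.97 in the same order, and the day 5 value of miR-302b includes the Wnt3a array that read 4.42.

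Among the miRNAs that were higher on all days, miR-125a-5p had a change of effect of 0.59 at day 3 and 1.47 at day 5, miR-23a of 0.86 and 1.53, and miR-99b of 0.71 at day 5. The effect became more negative for miR-19b, by -1.16 at day 3 and -0.91 at day 5, and for miR-125b-5p, by -1.87 and -1.89. For miR-107 it changed by -0.38 at day 5. miR-181d is the exception, with no call of the change on either day (adjusted p = 1 and 0.354 in limma). The Activin A plus Wnt3a arrays of day 3 were alone on their slide among the arrays of that day, so its part in the day 3 values cannot be told apart. At day 5, as at day 1, the 2 groups lay in different rows of a shared slide, and the part of the row cannot be told apart.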

How the results depend on the processing

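The 11 calls were counted again under each alternative. A fit of all 39 arrays gave 6, the 75th percentile of all miRNAs as the scale 3, quantile normalization within the 6 arrays 21, and a threshold of over 2-fold 1. The array labels of the processed table gave 35, in a comparison that is partly between slides. Leaving out 1 of the 12 arrays gave 9 to 15 calls. The other alternatives, apart from the replicate block in the fit of 6 arrays, gave 8 to 16. The sign of all 11 was the same under the 18 alternatives of normalization, floor, filter and fit. miR-302a was called under 18 of 18, miR-302b under 17, miR-99b, miR-125a-5p, miR-367, miR-23a and miR-302d under 16 each, miR-107 under 13, and miR-19b, miR-125b-5p and miR-181d under 12 each. With 1 array left out, 9 of the 11 were called in 12 of 12 fits, miR-125b-5p in 8 and miR-181d in 7. The sign turned for miR-26a (0.0438 with the 75th percentile of all miRNAs as the scale). With the labels of the processed table it turned for miR-125b-5p (-0.16), miR-181c (-0.13), miR-19a (0.21), miR-295 (-0.0531) and miR-335-5p (0.0680). The causes were not tested.

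The replicate numbers did not pair the arrays, since same-numbered arrays deviated from their group means with correlations of 0.06, -0.20 and -0.34. With the replicate block 10 miRNAs were called in the fit of 12 arrays and 2 in that of 6.

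The interaction had 0 calls, 1 with quantile normalization within day 1, and 0 to 4 with 1 array left out, 4 of them without control replicate 2, 2 without Activin A replicate 1, and 1 each without Activin A replicate 2 and without Activin A plus Wnt3a replicate 3. The change of the effect from day 1 to day 3 had 46 calls, and 88 without Wnt3a replicate 1 of day 5. Low signals were not measurable, as the lowest normalized log2 signal detected on an array of the comparison was 3.58.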
